A study of Mus musculus with 9 samples.

Results

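The integrated stress response was followed through 10 genes in mouse blood RNA, namely Chac1, Atf4, Ddit3, Trib3, Asns, Ppp1r15a, Hspa5, Hsp90b1, Atf3 and Sesn2, out of 20926 genes with a value. They were taken by symbol for their function, as Atf4, its targets, targets of CHOP and chaperones of the endoplasmic reticulum, with earlier results of these data known, and the level of Chac1 in the CIA and CIA+THz libraries was among those results. Chac1 is therefore described below with no test. The study asked how terahertz irradiation of inflamed joints acted on arthritis and on the immune state of the animals, and 9 blood libraries were sequenced, with 3 in each of 3 groups. All animals were male DBA/1 mice labeled as 7 weeks old. The paper gives this as their age when divided into groups, before immunization, so blood was taken at a later age that is not stated. The Ctrl group served as control without irradiation, the CIA group had collagen-induced arthritis, which is raised by immunization with chick type II collagen in adjuvant and a booster, and the CIA+THz group had the same arthritis and received 0.1 THz irradiation on the swollen ankle joints for 30 min per day over 14 days. Anesthesia with isoflurane was described for the irradiation, and was not described for Ctrl and CIA mice, so irradiation and anesthesia cannot be told apart here. The libraries of a group carry separate numbers, but no source gives the animals behind them or says whether blood was pooled, and p-values measure the spread between these libraries.

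When proteins misfold, amino acids or heme run short or double-stranded RNA appears, the kinases PERK, GCN2, HRI and PKR phosphorylate the translation factor eIF2α, which slows protein synthesis while the mRNA of the transcription factor ATF4 is translated more. ATF4 then raises genes of amino acid supply such as Asns, the transcription factor CHOP (gene Ddit3) and, with CHOP, Trib3, Chac1 and Ppp1r15a, whose product GADD34 brings a phosphatase back to eIF2α. In parallel the ATF6 and IRE1-XBP1 branches of the unfolded protein response raise chaperones of the endoplasmic reticulum such as BiP (gene Hspa5) and GRP94 (gene Hsp90b1), a load that antibody-secreting plasma cells carry in the normal state.

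The promoters of 6 members are printed to show the elements that ATF4 and ATF6 are known to bind. All 10 members matched a promoter of 300 bases in RefSeq (GRCm38.p6), with 250 bases before the start and 50 from it on, and positions count the start as 1 and the base before it as -1. The C/EBP-ATF response element was searched as TGATGNAA or, on the other strand, TTNCATCA, and it stood in 4 of the 10 member promoters and in 1304 of 32851 promoters overall (3.97%). The endoplasmic reticulum stress response element was searched as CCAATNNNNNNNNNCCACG or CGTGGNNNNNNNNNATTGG, and it stood in 2 of the 10 and in 39 of 32851 overall (0.119%). The motifs do not overlap each other in these promoters, and a match describes letters and not a site in use. Capitals mark the matches. The C/EBP-ATF element lay at -193 to -186 in Chac1 (chr2:119350992-119351291, plus strand), at -23 to -16 in Asns (chr6:7693160-7693459, minus strand), at -110 to -103 in Atf3 (chr1:191183284-191183583, minus strand) and at 15 to 22 in Trib3 (chr2:152344011-152344310, minus strand), all in GRCm38.p6.
Chac1: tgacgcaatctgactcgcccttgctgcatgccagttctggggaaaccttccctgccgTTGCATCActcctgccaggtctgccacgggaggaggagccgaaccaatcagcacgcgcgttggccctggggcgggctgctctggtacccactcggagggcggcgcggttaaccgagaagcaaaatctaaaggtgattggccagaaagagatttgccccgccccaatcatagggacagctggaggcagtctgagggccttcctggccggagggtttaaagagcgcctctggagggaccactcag
Asns: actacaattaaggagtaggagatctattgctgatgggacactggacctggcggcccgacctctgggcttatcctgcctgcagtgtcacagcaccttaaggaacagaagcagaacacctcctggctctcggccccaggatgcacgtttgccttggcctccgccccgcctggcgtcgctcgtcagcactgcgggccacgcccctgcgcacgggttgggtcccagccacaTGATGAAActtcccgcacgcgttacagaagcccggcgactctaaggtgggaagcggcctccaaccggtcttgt
Atf3: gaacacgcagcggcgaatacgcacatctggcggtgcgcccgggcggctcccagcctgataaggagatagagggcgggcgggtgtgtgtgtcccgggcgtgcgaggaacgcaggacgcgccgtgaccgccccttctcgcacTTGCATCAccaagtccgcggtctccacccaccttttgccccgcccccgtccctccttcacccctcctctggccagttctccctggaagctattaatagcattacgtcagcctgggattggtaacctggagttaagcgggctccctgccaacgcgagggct
Trib3: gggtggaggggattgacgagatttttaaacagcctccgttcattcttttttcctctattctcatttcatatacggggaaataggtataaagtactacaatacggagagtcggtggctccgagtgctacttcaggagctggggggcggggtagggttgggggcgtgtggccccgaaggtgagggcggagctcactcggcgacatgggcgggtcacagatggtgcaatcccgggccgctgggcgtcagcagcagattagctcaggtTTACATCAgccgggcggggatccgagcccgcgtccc
The stress response element of the chaperones lay at -65 to -47 in Hspa5 (chr2:34771840-34772139, plus strand) and, in Hsp90b1 (chr10:86705395-86705694, minus strand), at -212 to -194 and at -107 to -89.
Hspa5: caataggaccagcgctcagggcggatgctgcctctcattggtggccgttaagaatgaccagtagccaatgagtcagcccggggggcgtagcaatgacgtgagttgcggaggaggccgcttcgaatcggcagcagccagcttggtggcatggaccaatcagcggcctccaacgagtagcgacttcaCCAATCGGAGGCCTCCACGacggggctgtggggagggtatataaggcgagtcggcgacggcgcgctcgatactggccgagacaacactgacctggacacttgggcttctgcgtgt
Hsp90b1: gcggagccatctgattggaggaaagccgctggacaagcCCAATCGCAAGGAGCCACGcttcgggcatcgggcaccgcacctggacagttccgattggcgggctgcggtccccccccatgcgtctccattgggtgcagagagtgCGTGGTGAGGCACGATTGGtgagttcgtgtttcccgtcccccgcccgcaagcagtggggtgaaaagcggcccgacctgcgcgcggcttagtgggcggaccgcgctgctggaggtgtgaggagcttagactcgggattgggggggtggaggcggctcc
The element thus stood in the promoters of both chaperones among the members, and the levels of all 10 genes follow.

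Levels are given as rescaled FPKM, that is, the deposited fragment values per transcript length and library total after division by 1 factor per library (0.847 to 1.24), and levels of different genes are compared per length. FPKM holds no read counts, so the depth behind a value is unknown and no counting interval can be given. The labels name blood leukocytes while the protocol names total blood RNA. Ptprc, which encodes the leukocyte antigen CD45, lay between 66.8 and 149.7 (rescaled FPKM) over the 9 libraries. The red cell precursor gene Alas2 took 14.4% to 16.6% of all FPKM in Ctrl, 16.3% to 16.7% in CIA and 11.4% to 14.0% in CIA+THz. The CIA+THz libraries were thus the lowest in this share. In such a mixture, fewer cells of a type and less RNA per cell cannot be told apart. The CIA+THz libraries listed 12449 to 12807 genes above 0, the Ctrl libraries 11816 to 12264 and the CIA libraries 11801 to 12066. Without the rescaling the typical gene shifted upward by 0.27 (log2) in CIA+THz against CIA, by 0.30 in CIA+THz against Ctrl and by 0.03 in CIA against Ctrl, and every change involving CIA+THz is given relative to that shift. Each fold change is a difference in log2(rescaled FPKM + 0.1) from a limma fit over 12366 genes, which understates the change of genes near 0. A gene was called where the unadjusted p was under 0.05 and the absolute log2 fold change above 0.67. All 10 members passed the filter on low values.

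In CIA against Ctrl, Asns and Atf3 rose and Hsp90b1 fell, while Atf4, Ddit3, Ppp1r15a, Hspa5, Trib3 and Sesn2 did not pass the test. Thus 3 of the 9 members tested were called, beside 9.04% of all genes (4.79% called higher and 4.25% called lower), and 3 of the 9 had no overlap between the groups, beside 23.5% of all genes. The median log2 fold change of the 9 was -0.13, with 3 higher and 6 lower, and that of all genes was -0.01. After Benjamini-Hochberg adjustment over all genes no member had an adjusted p under 0.05 in this comparison by limma, where 19 genes (0.154%) did. Across the 3 groups together, limma's moderated F-test gave an unadjusted p under 0.05 for Asns, Hsp90b1, Atf3 and Ddit3, beside 21.3% of all genes, and an adjusted p under 0.05 for Asns (0.0309) and Hsp90b1 (0.0262), beside 2.53% of all genes.

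In CIA+THz against CIA, Atf3, Ddit3 and Asns were lower and no member was higher. Here 3 of the 9 members were called, all lower, beside 4.54% of all genes called and 1.6% called lower, and 3 had no overlap, beside 19.6% of all genes (9.38% higher and 10.2% lower). The median of the 9 was -0.23, with 1 higher and 8 lower, and that of all genes was 0.03. By limma 0 genes of 12366 passed an adjusted p of 0.05 in this comparison, while 1634 had an unadjusted p under 0.05. With FPKM as deposited, none of the 9 was called and 5 of the 9 were higher, with a median of 0.03. In those units 3 members were higher with no overlap (Atf4, Hspa5 and Hsp90b1) and 1 was lower (Atf3), while the genes called shifted from 363 higher and 198 lower to 1126 higher and 66 lower. The falls after irradiation are therefore falls relative to the typical gene, and in deposited units they did not pass the criterion.

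Against Ctrl, Asns was higher in CIA+THz and Ddit3 was lower, so that 2 of the 9 were called, beside 7.88% of all genes (4.64% higher and 3.24% lower), and 6 had no overlap, beside 24% of all genes. No member had an adjusted p under 0.05 by limma, where 13 genes (0.105%) did, while 18.1% of all genes had an unadjusted p under 0.05. The median of the 9 was -0.30, with 3 higher and 6 lower, and that of all genes was 0.04. Only Asns was called with FPKM as deposited and 5 of the 9 were higher, and the members with no overlap were Asns, higher, and Hsp90b1, lower. The genes called moved from 574 higher and 401 lower to 1596 higher and 120 lower.

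**Figure D1:**
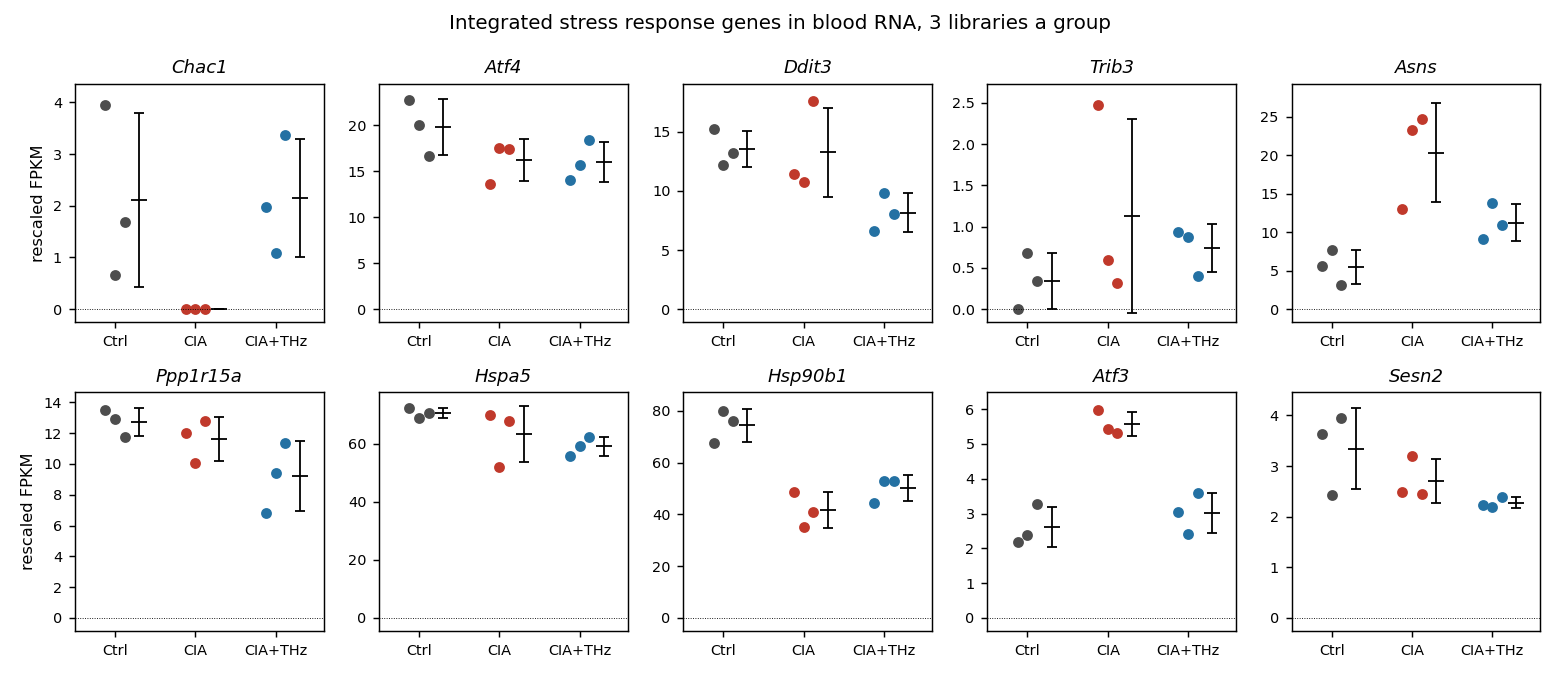
Rescaled FPKM (vertical axes, each from 0) of the 10 genes in the Ctrl, CIA and CIA+THz groups. Points are libraries and bars show the mean and SD of 3 libraries. Chac1 is at 0 in the 3 CIA libraries, Asns and Atf3 are highest in CIA, and Hsp90b1 is highest in Ctrl.

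**Figure D2:**
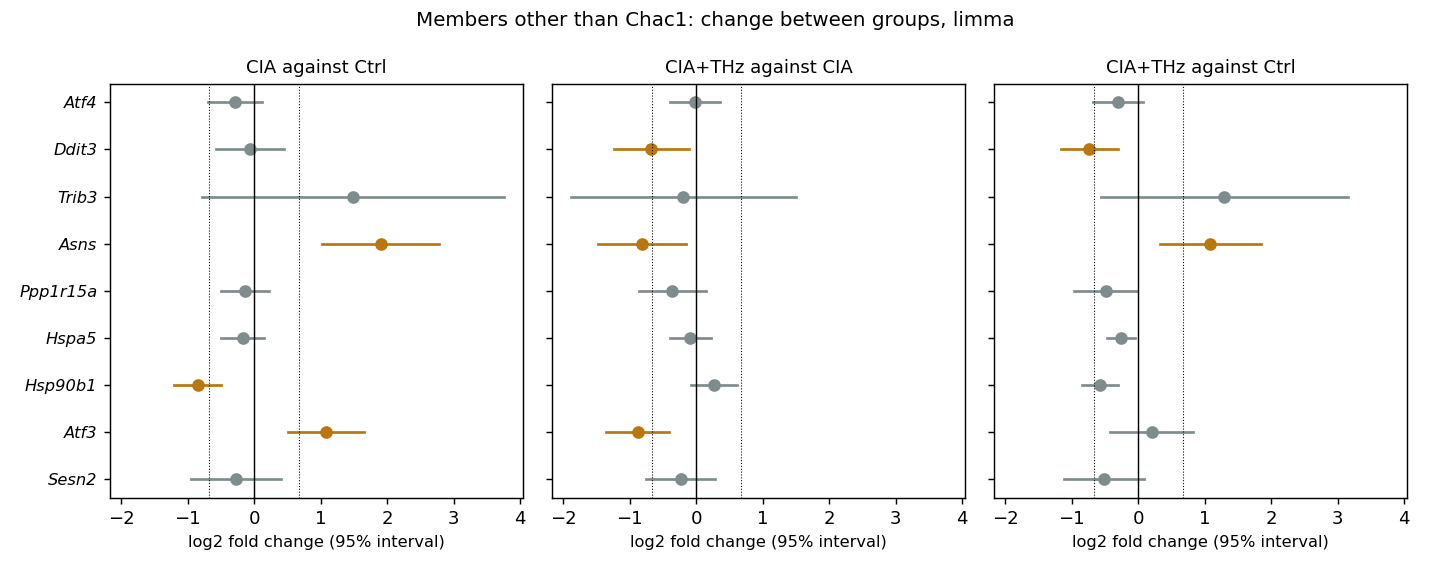
Log2 fold change with its 95% interval (horizontal axes) by limma for the 9 members other than Chac1 in each comparison. Orange marks members called, with an unadjusted p under 0.05 and a change beyond the dotted lines at -0.67 and 0.67. Asns at 1.90 and Atf3 at 1.08 lie to the right in CIA against Ctrl, and both lie to the left in CIA+THz against CIA, where no call held with FPKM as deposited.

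The genes at the head of the response gave few calls. Atf4 (chromosome 15 of GRCm38, 80255184 to 80257541), which encodes the central transcription factor, was at 22.8, 20.02 and 16.6 (rescaled FPKM) in the Ctrl libraries, at 13.6, 17.6 and 17.5 in CIA and at 14.0, 15.7 and 18.4 in CIA+THz. The 3 groups overlapped. Its log2 fold change was -0.29 (95% interval -0.70 to 0.12) in CIA against Ctrl and -0.02 (-0.39 to 0.36) in CIA+THz against CIA, which was 0.26 with FPKM as deposited, and none of these passed the test. ATF4 is controlled largely at translation, which RNA levels do not measure. Of the 4 kinases, Eif2ak1 (HRI, the heme-regulated kinase of red cell precursors) had the highest level, with 16.9 ± 2.31 (SD, n = 3) for Ctrl, 16.7 ± 1.60 for CIA and 14.9 ± 0.214 for CIA+THz. Eif2ak3 (PERK) followed with 8.19 ± 0.212 for Ctrl, 7.55 ± 0.937 for CIA and 8.54 ± 1.02 for CIA+THz. Eif2ak4 (GCN2, the sensor of uncharged tRNA) was at 3.76 ± 0.741, 3.26 ± 1.04 and 4.43 ± 0.927, and Eif2ak2 (PKR) at 3.10 ± 0.646, 2.81 ± 0.499 and 2.50 ± 0.218 in the same order. None of the 4 kinases was called in any comparison.

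Ppp1r15b, which encodes the constitutive partner of the eIF2α phosphatase, stood at 20.5 ± 3.15 for Ctrl, 17.0 ± 1.92 for CIA and 17.5 ± 1.68 for CIA+THz (rescaled FPKM, SD, n = 3). Eif2s1, which encodes eIF2α itself, was at 14.5, 10.95 and 9.41 in the Ctrl libraries, at 8.41, 6.72 and 7.82 in CIA and at 11.9, 12.6 and 14.8 in CIA+THz. All 3 CIA+THz libraries were above all 3 CIA libraries. It rose by 0.77 (log2, SE 0.15) in CIA+THz against CIA with an adjusted p of 0.196 by limma, and its -0.58 (SE 0.21) in CIA against Ctrl did not pass the criterion, although those groups did not overlap either. Over the list of 7 genes of eIF2α and its kinases and phosphatase, Eif2s1 was the only gene called in CIA+THz against CIA, beside 4.54% of all genes. The list median was 0.04. No gene of the list was called in CIA against Ctrl (median -0.13) or in CIA+THz against Ctrl (median 0.05).

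Ddit3 was lower in the irradiated animals than in both other groups, and passed the criterion only relative to the typical gene. Ddit3 (chromosome 10, 127290774 to 127296288), which encodes CHOP, was at 15.2, 12.2 and 13.2 (rescaled FPKM) in Ctrl, at 11.4, 10.7 and 17.6 in CIA and at 6.58, 9.84 and 8.07 in CIA+THz. Every CIA+THz library lay below every Ctrl and every CIA library, and Ctrl and CIA overlapped. Its log2 change was -0.67 (SE 0.24) in CIA+THz against CIA, with an unadjusted p of 0.0261 and an adjusted p of 0.315 by limma, and -0.73 (SE 0.18) in CIA+THz against Ctrl, with an adjusted p of 0.137. In CIA against Ctrl its change was -0.06 (95% interval -0.57 to 0.45). The first of these changes stood just past the limit of 0.67, and the call was lost without CIA replicate 3, which had the highest level, without CIA+THz replicate 1 or without CIA+THz replicate 3, where the change was as small as -0.45. The second was lost without Ctrl replicate 1 or CIA+THz replicate 1. With FPKM as deposited the changes were -0.40 and -0.43, neither was called, and the values of 8.16, 11.3 and 8.86 in CIA+THz overlapped those of 10.39, 10.39 and 17.5 in CIA. Exons of Ddit3 share bases with Mars and Gm4189 on the other strand, and since no source gives the strand of counting, reads of these genes cannot be told apart.

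Ppp1r15a and Trib3, which act as brakes on the response, gave no call. Ppp1r15a (chromosome 7, 45522916 to 45526268, with exon bases shared with Tulp2 on the other strand) encodes GADD34 and was at 13.5, 12.95 and 11.8 (rescaled FPKM) in Ctrl, at 12, 10.1 and 12.8 in CIA and at 6.83, 9.41 and 11.4 in CIA+THz. The CIA+THz libraries were below the Ctrl libraries and overlapped CIA, with changes of -0.49 (log2, SE 0.20) against Ctrl and -0.36 (SE 0.21) against CIA. In deposited FPKM the changes were -0.19 and -0.08, and CIA+THz overlapped Ctrl too. Trib3 (chromosome 2, 152337422 to 152344032), which encodes a pseudokinase that restrains ATF4 and CHOP, was listed at 0, 0.679 and 0.342 in Ctrl, at 2.48, 0.602 and 0.316 in CIA and at 0.932, 0.875 and 0.404 in CIA+THz. The groups overlapped, and CIA replicate 1 stood alone above 1. The 95% interval of its change in CIA against Ctrl ran from -0.79 to 3.76, so a wide range of changes is left by these values, and in CIA+THz against CIA the estimate moved from -0.19 to 0.56 without CIA replicate 1.

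Asns, which encodes asparagine synthetase, had the largest log2 fold change of the 9 members in CIA against Ctrl. Asns (chromosome 6, 7675169 to 7693254) was at 5.61, 7.64 and 3.19 (rescaled FPKM) in Ctrl, at 13.02, 23.3 and 24.7 in CIA and at 9.06, 13.8 and 10.9 in CIA+THz. Every CIA and every CIA+THz library lay above every Ctrl library, while the lowest CIA library fell below the highest CIA+THz library. Its mean was 5.48 ± 2.23 (SD, n = 3) for Ctrl, 20.3 ± 6.37 for CIA and 11.2 ± 2.37 for CIA+THz. It rose by 1.90 (log2, SE 0.37) in CIA against Ctrl, with an adjusted p of 0.0768 by limma, and the change was between 1.57 and 2.20 when each library was left out. The change in CIA+THz against CIA was -0.82 (SE 0.28), with an unadjusted p of 0.0223 and an adjusted p of 0.303 by limma. That call was lost without CIA replicate 2, CIA replicate 3, CIA+THz replicate 1 or CIA+THz replicate 3, and with FPKM as deposited the change was -0.54 and was not called. Against Ctrl it was higher in CIA+THz by 1.09 (SE 0.32), with an adjusted p of 0.164 by limma, and by 1.39 with FPKM as deposited, and the call was lost without CIA+THz replicate 2, where the change was 0.75.

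Atf3, a transcription factor induced by many stresses, separated CIA from both other groups. Atf3 (chromosome 1, 191170296 to 191218039) was at 2.20, 2.37 and 3.28 (rescaled FPKM) in Ctrl, at 5.98, 5.42 and 5.32 in CIA and at 3.06, 2.42 and 3.58 in CIA+THz. All 3 CIA libraries lay above the other 6, and Ctrl and CIA+THz overlapped. It rose by 1.08 (log2, SE 0.24) in CIA against Ctrl, with an adjusted p of 0.101 by limma. In CIA+THz against CIA the change was -0.88 (SE 0.20), with an unadjusted p of 0.00352 and an adjusted p of 0.21 by limma, and Atf3 kept both calls when each library was left out, with ranges of 0.97 to 1.25 and -1.01 to -0.73. With FPKM as deposited its values were 5.43, 5.26 and 5.28 in CIA and 3.79, 2.76 and 3.93 in CIA+THz, which still did not overlap, but the change of -0.61 no longer reached the limit on size. The change in CIA+THz against Ctrl was 0.20 (95% interval -0.42 to 0.82).

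Sesn2, which encodes a leucine sensor that restrains mTORC1, was low and little changed. Sesn2 (chromosome 4, 132492032 to 132510501) was at 3.64, 2.43 and 3.95 (rescaled FPKM) in Ctrl, at 2.48, 3.20 and 2.44 in CIA and at 2.23, 2.20 and 2.40 in CIA+THz. The CIA+THz libraries lay below the lowest library of each other group, by a small margin, and overlapped both in deposited FPKM. The changes of -0.23 (log2, SE 0.22; 0.03 with FPKM as deposited) against CIA and -0.51 (SE 0.26) against Ctrl did not pass the test.

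Chac1 was listed at 0 in all 3 CIA libraries and above 0 in all 6 others. Chac1 (chromosome 2, 119351229 to 119354381), which encodes an enzyme that splits the antioxidant glutathione, was at 3.96, 0.667 and 1.69 (rescaled FPKM) in Ctrl and at 1.98, 1.10 and 3.36 in CIA+THz. The Ctrl and CIA+THz libraries overlapped, at 2.11 ± 1.68 (SD, n = 3) and 2.14 ± 1.14, and no fold can be given against a group listed at 0. In CIA its direction was thus opposite to that of Asns and Atf3. Over the whole table, 14 genes were at 0 in the 3 CIA libraries and above 0 in the 6 others, and Chac1 was the only one of them whose mean was at least 1 in both other groups. Since Chac1 was taken with its level in these groups known, its place in this count is a description and not a test. The same pattern was seen for 17 genes in Ctrl, of which 2 (Cbr3 and Slamf8, named after their values were seen) had such means, and for 0 genes in CIA+THz. An exact 0 in these files can also sit beside expression in the same group, since 222 of the 9748 genes with a mean of at least 1 (2.28%) were at 0 in 1 or more libraries of a group and at least 1 in another of the same group. Chac2, the paralog with a steady glutathione-splitting activity, was at 22.3, 19.7 and 14.7 in Ctrl, at 13.3, 11.4 and 9.31 in CIA and at 7.55, 12.2 and 10.4 in CIA+THz. Chac2 was thus lower in both arthritis groups, with no overlap with Ctrl, and its log2 changes of -0.73 (SE 0.21) in CIA and -0.91 (SE 0.23) in CIA+THz had adjusted p of 0.166 and 0.137 by limma. The second was not called with FPKM as deposited.

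The genes whose levels followed Chac1 most closely over the 9 libraries, by the correlation of log2 levels among the 9747 other genes with a mean of at least 1, were Bcl2 (r = 0.969), Atm (0.963), Malt1 (0.96), Srr (0.958) and Zfx (0.955). Since Chac1 is at 0 throughout CIA, genes low in CIA come first by this measure, as does Bcl2, an inhibitor of cell death, with 114 ± 9.70 for Ctrl, 65.4 ± 2.57 for CIA and 116 ± 19.3 for CIA+THz (rescaled FPKM, SD, n = 3). Those closest to Ddit3 were Serinc5 (0.932), Cited2 (0.932), Fbxl22 (0.923), E330009J07Rik (0.903) and Pyurf (0.902). These values describe likeness of pattern over libraries that share their groups and scaling.

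Of the chaperones of the endoplasmic reticulum, Hsp90b1 fell in CIA and Hspa5 was not called. Hspa5 (chromosome 2, 34771970 to 34777547), which encodes BiP, was at 72.3, 68.6 and 70.5 (rescaled FPKM) in Ctrl, at 69.8, 52.1 and 67.7 in CIA and at 55.8, 59.3 and 62.3 in CIA+THz. CIA overlapped both other groups, and its change against Ctrl was -0.17 (log2, 95% interval -0.49 to 0.15). The change in CIA+THz was -0.25 (SE 0.09) against Ctrl and -0.09 (SE 0.13) against CIA, which were 0.05 and 0.19 with FPKM as deposited, and none was called. Hsp90b1 (chromosome 10, 86690209 to 86705509), which encodes GRP94, was at 67.6, 79.8 and 75.9 in Ctrl, at 48.9, 35.1 and 40.9 in CIA and at 44.3, 52.9 and 53.0 in CIA+THz. All Ctrl libraries lay above the other 6, and CIA and CIA+THz overlapped. Hsp90b1 fell by 0.85 (log2, SE 0.15) in CIA against Ctrl, with an adjusted p of 0.0669 by limma, and the change stayed between -0.97 and -0.73 when each library was left out. Its change in CIA+THz against Ctrl was -0.57 (SE 0.12), with an adjusted p of 0.0992, which missed the limit on size, and its 0.28 (SE 0.15) against CIA did not pass the test. With FPKM as deposited the last value was 0.55, with an unadjusted p of 0.00289 by limma, which also missed the limit on size although the groups then did not overlap. Exons of Hsp90b1 share bases with 1810014B01Rik on the other strand and with Gm15344 and Gm25745 on its own strand, so reads of the shared bases cannot be assigned to it with certainty.

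Ratios of members within a library do not depend on the scaling of that library, and 5 ratios, chosen after the values were seen, are given as a description with no test. Hsp90b1/Hspa5 was 0.934, 1.16 and 1.08 in Ctrl, 0.7, 0.673 and 0.604 in CIA and 0.794, 0.893 and 0.85 in CIA+THz. No pair of groups overlapped, and CIA+THz lay between CIA and Ctrl. Asns/Atf4 was 0.246, 0.382 and 0.191 in Ctrl, 0.96, 1.33 and 1.41 in CIA and 0.647, 0.879 and 0.591 in CIA+THz, which again put CIA+THz between the others with no overlap. Atf3/Atf4 was 0.305 to 0.441 in CIA, above both Ctrl (0.0964 to 0.197) and CIA+THz (0.154 to 0.218). Ddit3/Atf4 overlapped between all pairs of groups, with means of 0.689 ± 0.093 for Ctrl, 0.82 ± 0.199 for CIA and 0.512 ± 0.102 for CIA+THz (SD, n = 3). Ddit3/Ppp1r15a overlapped between all pairs too, with means of 1.06 ± 0.106, 1.13 ± 0.218 and 0.906 ± 0.176 in the same order. A ratio shows that its genes changed unequally and does not show which of them changed.

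**Figure D3:**
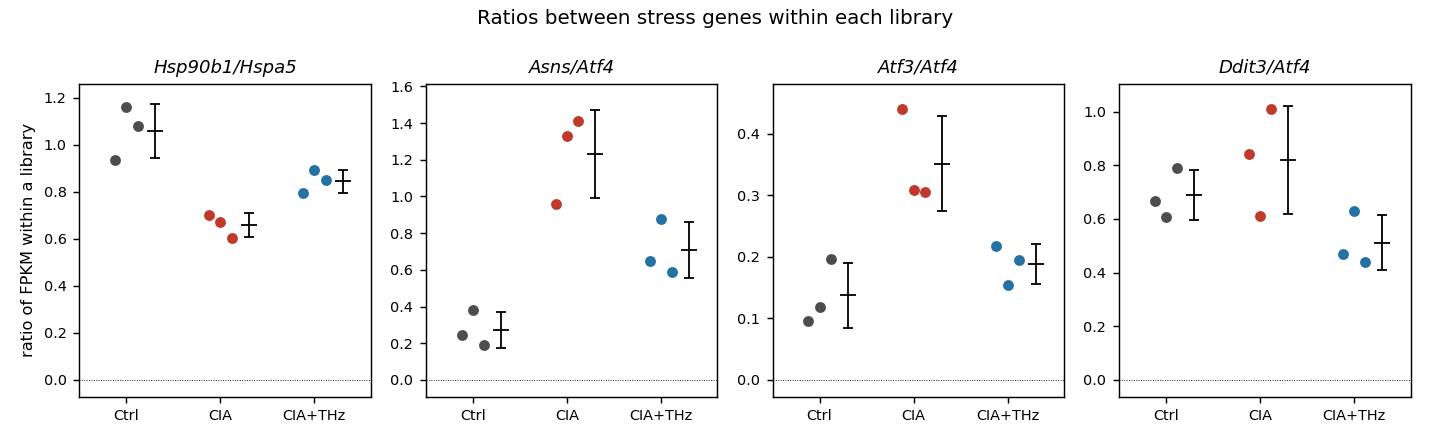
Ratio of the FPKM of a pair of members within each library (vertical axes, from 0) in the 3 groups, with points for libraries and bars for the mean and SD of 3 libraries. Hsp90b1/Hspa5 is lowest and Asns/Atf4 and Atf3/Atf4 are highest in CIA, and Ddit3/Atf4 overlaps between the groups.

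Other genes of the pathway were read from lists chosen by function. Of the 24 ATF4 targets in amino acid transport and stress besides the members, Cth and Fgf21 were at 0 in every library and 22 were tested. In CIA against Ctrl 2 of the 22 were called lower and none higher, near the share over all genes. By direction 12 were higher and 10 lower, 2 and 3 of them with no overlap, and the median log2 fold change was 0.07. Slc7a11, the cystine carrier that feeds glutathione synthesis, was at 4.47, 3.49 and 2.99 (rescaled FPKM) in Ctrl, 2.00, 1.83 and 2.30 in CIA and 1.48, 1.63 and 1.15 in CIA+THz. No pair of groups overlapped, with changes of -0.79 (log2, SE 0.27) in CIA against Ctrl, -0.51 (SE 0.26), which was not called, in CIA+THz against CIA, and -1.30 (SE 0.27) in CIA+THz against Ctrl. Slc38a2, a carrier of small neutral amino acids, was at 49.5 ± 8.01 (SD, n = 3) in Ctrl and lower in CIA at 28.9 ± 1.56 and in CIA+THz at 28.7 ± 2.08, with adjusted p of 0.07 and 0.0803 by limma. After irradiation 1 of the 22 was called against CIA, with a list median of -0.01. This was Slc7a1, a carrier of cationic amino acids, which was higher at 2.07 ± 0.261 than at 1.11 ± 0.343, by 0.87 (log2, SE 0.30). Against Ctrl, 3 of the 22 were lower in CIA+THz, namely Slc7a11, Slc38a2 and Cebpb, none was higher, and the median was -0.05, but with FPKM as deposited 5 of the 22 were called higher and 1 lower, with a median of 0.24. None of the 22 was called higher in CIA as Asns was.

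The most abundant genes of that list were Sqstm1, the autophagy receptor, Slc7a5, the carrier of large neutral amino acids, and Eif4ebp1, an inhibitor of cap-dependent translation. Their means in Ctrl, CIA and CIA+THz were 265 ± 45.5, 277 ± 28.2 and 228 ± 14.2 for Sqstm1 and 66.0 ± 21.3, 75.2 ± 5.57 and 50.2 ± 5.88 for Slc7a5 (rescaled FPKM, SD, n = 3). Eif4ebp1 was at 55.6 ± 1.79, 67.8 ± 12.7 and 46.1 ± 0.611. Each CIA+THz library lay below each CIA library for all 3, with log2 changes between -0.59 and -0.28, and none was called. These changes would, with FPKM as deposited, be higher by about the shift of 0.27 given above.

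Of the 12 cytosolic aminoacyl-tRNA synthetases, which charge tRNAs and are also raised by ATF4, 9 had a higher mean level in CIA, and 1 was called. The list median was 0.20. The gene called was Mars, the methionine enzyme, at 4.30, 5.58 and 6.75 (rescaled FPKM) in Ctrl, 7.14, 11.1 and 9.70 in CIA and 8.15, 10.8 and 8.29 in CIA+THz. It was higher than Ctrl by 0.74 (log2, SE 0.25) in CIA and by 0.71 (SE 0.22) in CIA+THz, with adjusted p of 0.207 and 0.167 by limma. Its exons share bases with those of Ddit3 on the other strand, as given above. Sars, the serine enzyme, stood at 7.88 ± 0.513 (SD, n = 3) for Ctrl, 12.2 ± 0.440 for CIA and 11.9 ± 0.710 for CIA+THz, and its changes of 0.62 and 0.59 (log2) missed the limit on size. Nars was at 17.0 ± 1.03, 21.6 ± 2.61 and 16.6 ± 5.66 and Gars at 8.89 ± 1.59, 10.8 ± 0.360 and 10.97 ± 0.699 in Ctrl, CIA and CIA+THz, with no call. No synthetase was called in CIA+THz against CIA, where the median was -0.02, and in CIA+THz against Ctrl only Mars was called and the median was 0.30.

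Of the 27 genes of the ATF6 and XBP1 branches besides the members, 2 were called lower and none higher in CIA against Ctrl. This stands beside 9.04% of all genes called, and the list median was -0.12. By direction 10 of the 27 were higher and 17 lower, 2 and 5 of them with no overlap. Xbp1 itself was higher with no overlap, by 0.49 (log2, SE 0.14), and missed the limit on size. Derl3, a factor of protein degradation at the endoplasmic reticulum, was at 2.23, 1.62 and 2.70 (rescaled FPKM) in Ctrl, 0.154, 0.448 and 0.115 in CIA and 0.174, 0.641 and 0.658 in CIA+THz. It fell by 2.85 (log2, SE 0.50) in CIA against Ctrl, with an adjusted p of 0.0669 by limma, and its change in CIA+THz against Ctrl was -2.06 (SE 0.49). Pdia4, a protein disulfide isomerase, was at 23.2 ± 5.78 (SD, n = 3) in Ctrl and 13.04 ± 2.94 in CIA, a change of -0.82 (SE 0.24), and at 16.0 ± 1.67 in CIA+THz. The most abundant genes of the list gave no call, with Calr at 108 ± 10.1, 102 ± 12.4 and 101 ± 2.78, Edem1 at 118 ± 12.7, 101 ± 10.5 and 92.1 ± 5.18, and Pdia3 at 112 ± 10.7, 90.7 ± 2.56 and 98.7 ± 4.07 in Ctrl, CIA and CIA+THz. No gene of the list was called in CIA+THz against CIA (median 0.01), and only Derl3 was in CIA+THz against Ctrl (median -0.11).

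Of the 11 genes of glutathione turnover, 10 were lower in CIA than in Ctrl and 2 were called, Chac2 and Ggt1, with a list median of -0.46. The groups overlapped for Ggt1, which is named because the list had only 2 calls. Between CIA+THz and CIA none was called and the median was 0.20, and in CIA+THz against Ctrl only Chac2 was called and the median was -0.32. Of the most abundant genes, Gpx4 was at 563 ± 67.7, 625 ± 94.3 and 461 ± 49.6 and Gsr at 70.6 ± 19.5, 59.6 ± 10.9 and 52.4 ± 3.06 (rescaled FPKM, SD, n = 3). Gpx1 varied more within groups than between them, from 589 to 2844 in Ctrl and from 309 to 2300 in CIA. In deposited FPKM the calls in CIA+THz against CIA were 2, 1, 2, 0 and 2 in the lists of eIF2α, ATF4 targets, synthetases, ATF6 and XBP1 genes, and glutathione, all of them higher. In CIA+THz against Ctrl they were 4 higher of the synthetases, 3 higher and 1 lower of the ATF6 and XBP1 genes, and 0 of the eIF2α and glutathione genes, beside the ATF4 targets given above.

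**Figure D4:**
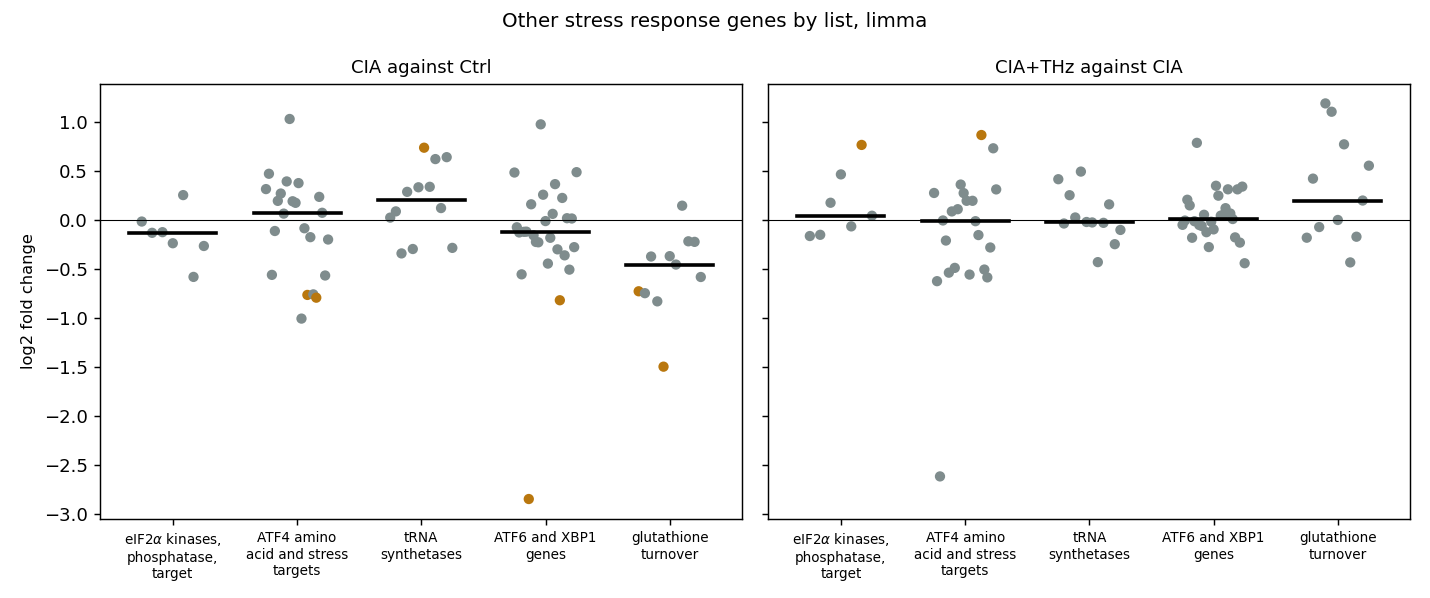
Log2 fold change by limma (vertical axis) of the other genes of each list in CIA against Ctrl and in CIA+THz against CIA, with a point per gene, orange for genes called and a black bar for the list median. Derl3 at -2.85 is the lowest point on the left, the glutathione list lies lowest by median there at -0.46, and the medians on the right lie between -0.02 and 0.20, where with FPKM as deposited they lie between 0.25 and 0.47.

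Markers of blood cell types moved with these groups, and their part in the results above was not tested. The summed level of 8 plasma cell genes was 116 to 140.1 (rescaled FPKM) in Ctrl, 57.3 to 64.3 in CIA and 52.2 to 58.2 in CIA+THz, with 7 of 8 lower and 4 called in CIA against Ctrl. Derl3 is on this list too, and Jchain, the joining chain of secreted antibodies, was at 63.6 to 80.4 in Ctrl and 5.197 to 6.69 in CIA, while Xbp1 was higher in CIA, at 35.9 to 42.5 against 25.2 to 32.8. Most of the drop in the plasma cell sum came from Jchain, which was at 6.88 to 14.7 in CIA+THz. That sum was thus low in the same groups as Hsp90b1, in CIA through Jchain and in CIA+THz largely through it. The sum of 9 monocyte genes was 607 to 637 in Ctrl, 939.8 to 1054 in CIA and 749.7 to 795 in CIA+THz, with 9 of 9 higher and 5 called in CIA against Ctrl, and with 8 of 9 lower and 2 called in CIA+THz against CIA, where 3 of 9 were higher and none was called with FPKM as deposited. The monocyte list thus had the same order of groups as Asns, but this order was not particular to monocyte genes. Ngp, Camp and Ltf of the neutrophil list had it too, with no overlap between any pair of groups. From the lowest group to the highest, that is Ctrl, CIA+THz and CIA, the means were 4.20, 26.5 and 110 for Camp. Those of Ltf were 3.60, 16.6 and 72.5. The summed neutrophil list did not have this order. The sum of 11 neutrophil genes was 12435 to 21008 in Ctrl, 14589 to 19140.2 in CIA and 10700 to 12133 in CIA+THz, and S100a9 made up most of it. Against CIA, 11 of 11 were lower in CIA+THz and 4 were called, or 2 of 11 were higher and 3 called lower with FPKM as deposited. Against Ctrl the list held calls in both directions. In CIA 3 of its genes were called higher (Ngp, Camp and Ltf) and 1 lower, and in CIA+THz the same 3 were called higher and 3 others lower. Camp, for example, changed by 4.86 (log2) in CIA and by 2.83 in CIA+THz against Ctrl. None of the markers on these lists was at 0 in every library.

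The remaining lists are given by their calls in CIA against Ctrl and in CIA+THz against CIA. Of 9 T cell genes, 1 was called lower and then 2 were called higher (3 with FPKM as deposited). By direction 9 of 9 were lower in CIA than in Ctrl, 5 of them with no overlap. In CIA+THz 9 of 9 were higher than in CIA, 6 of them with no overlap. The summed level was 320 to 373 in Ctrl, 265 to 304 in CIA and 326 to 443 in CIA+THz, lowest in CIA as Chac1 was. Of 7 NK cell genes, 4 were called lower and then 2 higher (3 with FPKM as deposited), with 6 of 7 lower and then 6 of 7 higher by direction. The NK cell medians of -0.99 and then 0.59 went further in the same directions than the T cell medians of -0.30 and 0.35. Of 8 B cell genes, 1 rose and then none was called, although 7 of 8 were higher, and 3 were called higher with FPKM as deposited. Of 7 platelet genes and of 10 ubiquitous genes none was called in either. All 7 platelet genes were nevertheless lower in CIA+THz than in CIA, 5 of them with no overlap. Their median was -0.47, or -0.20 with 1 of 7 higher with FPKM as deposited. Of 9 erythroid genes 1 fell and then none was called. Their sum, mostly Alas2, was 82554 to 128403 in Ctrl, 100388 to 114942 in CIA and 56000 to 78332 in CIA+THz. Against Ctrl, 9 of 9 erythroid genes were lower in CIA+THz and 4 were called, or 1 of 9 was higher and 1 called lower with FPKM as deposited. Of 5 pan-leukocyte genes none was called and then 1 (Ptprc, with overlap) was called higher. Every CIA+THz library lay below every CIA library for the remaining 4 pan-leukocyte genes, with a list median of -0.18, or 0.10 with FPKM as deposited. The ubiquitous genes had medians of 0.19 and -0.12, and single genes moved further, with Gapdh at 0.44 and -0.44 (log2). In CIA 8 of 10 were higher than in Ctrl, 2 of them with no overlap. In CIA+THz 9 of 10 were lower than in CIA, 4 of them with no overlap, or 7 of 10 were higher with FPKM as deposited. Their sum was 3281 to 3745 in Ctrl, 3924 to 4454 in CIA and 3504 to 3760 in CIA+THz. Every CIA library thus lay above every Ctrl and every CIA+THz library in this sum, as for Atf3.

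**Figure D5:**
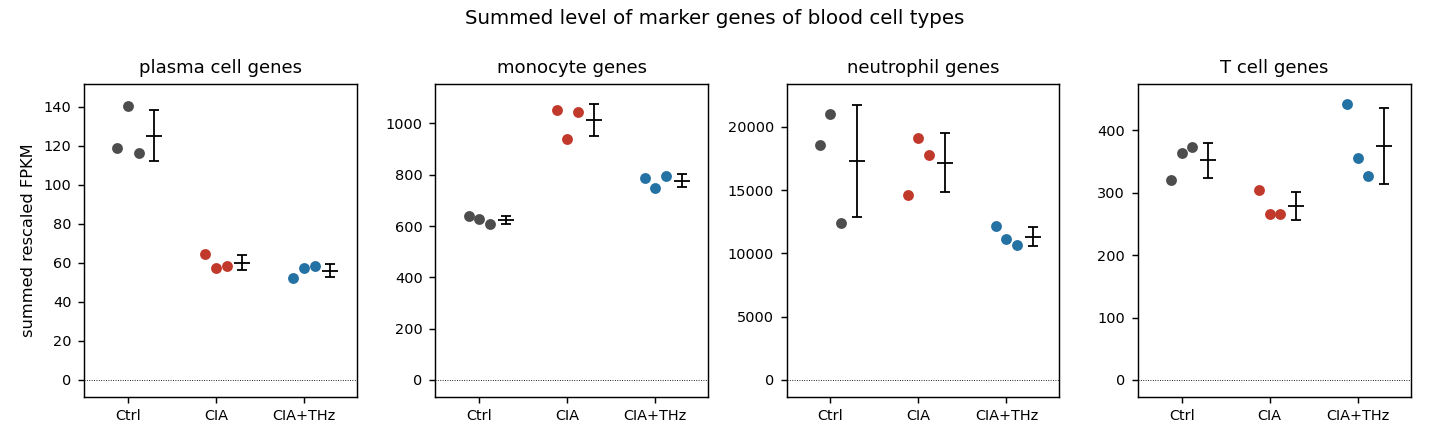
Summed rescaled FPKM (vertical axes, from 0) of the marker genes of plasma cells, monocytes, neutrophils and T cells in the 3 groups, with points for libraries and bars for the mean and SD of 3 libraries. The plasma cell sum is highest in Ctrl at 116 to 140.1, largely through Jchain. Monocyte genes are highest in CIA at 939.8 to 1054, and neutrophil genes are lowest in CIA+THz at 10700 to 12133.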

How the data were processed

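RNA of 9 blood samples, 3 each of Ctrl, CIA and CIA+THz, was sequenced by the authors as paired reads of 150 bases on an Illumina HiSeq instrument. The authors deposited FPKM values for 20926 genes, 1 column per library. The submitters' processing notes name bcl2fastq 2.0, HISAT2, StringTie, DESeq2 and the build mm10, without versions for the aligner, the assembler and DESeq2. The annotation, strand and filters are not given in the sources used here. The number of columns not mapped to a sample was 0.

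The deposited FPKM hold no read counts, so depth is unknown. Columns were rescaled with median-of-ratios factors from the 10312 genes that were above 0 in every library. Genes with a mean of at least 0.1 (12366) were tested on log2(value + 0.1) with limma 3.58.1 (trend on the mean) in R 4.3.3, each pair of groups on its 6 libraries. They were called where the unadjusted p was under 0.05 and the log2 fold change beyond 0.67 in size. Only these limits come from the study, so the calls need not match its own. Scripts were tested on simulated data. The members, lists and rules were chosen with earlier results of these data known. Genes named were the members, list genes called without overlap, the 3 most abundant genes per list, the eIF2α kinases, Chac2, and the 5 genes most like Chac1 and Ddit3. Cebpb, Ggt1, Jchain, Xbp1, Ptprc, Alas2, Cth, Fgf21, S100a9, Ngp, Camp, Ltf and Gapdh were named after their values were seen. Coordinates are those of GENCODE M21 on GRCm38. Alternatives were other filters, a pseudocount of 1, FPKM as deposited, no trend, all libraries in a fit, the replicate block, Benjamini-Hochberg adjustment and leaving out each library.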

Additional observations from a re-analysis of the deposited data

How the results depend on the processing

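Over 8 alternatives in 3 comparisons, leaving libraries out aside, the fold changes of the members gave 213 values, of which 194 kept direction and call, 13 lost the call and 6 changed sign. With FPKM as deposited, 1192 genes and 0 members were called in CIA+THz against CIA and 1716 genes and 1 member in CIA+THz against Ctrl, because the scaling shifts all genes of a library together. The 6 changes of sign were also with FPKM as deposited. They were Atf4 at 0.26, Trib3 at 0.058, Hspa5 at 0.19 and Sesn2 at 0.034 in CIA+THz against CIA, and Atf4 at 0.0027 and Hspa5 at 0.053 in CIA+THz against Ctrl, none of which was called on either scale. With a pseudocount of 1, 283 genes were called in CIA+THz against CIA, and Ddit3 lost its call. After Benjamini-Hochberg adjustment, 19, 0 and 13 genes and 0 members were called in CIA against Ctrl, CIA+THz against CIA and CIA+THz against Ctrl, and 313 genes by the F-test. Without each library in turn, 3 members were called in CIA against Ctrl in all 6 fits, 1 to 3 in CIA+THz against CIA and 1 to 4 in CIA+THz against Ctrl, and the genes called were 966 to 1261, 484 to 745 and 724 to 1487, with 1487 without Ctrl replicate 3, and 2059 to 2789 by the F-test. Without Ctrl replicate 2, Trib3 (1.92) and Sesn2 (-0.72) were called in CIA+THz against Ctrl. Changes of Ddit3 in CIA against Ctrl (-0.28 to 0.0737), Atf4 in CIA+THz against CIA (-0.14 to 0.0759) and Trib3 in CIA+THz against CIA (-0.75 to 0.56) crossed 0. Replicate numbers are only names here. Libraries with the same number did not deviate together (r between -0.0517 and 0.0309 over 9 pairs), and with the number as a block 3, 3 and 2 members and 1073, 506 and 967 genes were called, and 2399 by the F-test. Without a filter, without the trend or with all 9 libraries in a fit no member changed its call. The unknown depth limits Trib3 and Chac1 most, whose levels are low.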

Other observations

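Cebpb, which encodes a partner of ATF4 and CHOP in binding DNA, differed between libraries of the same group more than between groups. It was at 59.1, 58.0 and 46.9 (rescaled FPKM) in Ctrl, at 102, 4.56 and 106 in CIA and at 61.6, 2.08 and 1.52 in CIA+THz. CIA replicate 2 and CIA+THz replicates 2 and 3 thus stood far below the other 6 libraries. Over the table, 310 of the 9748 genes with a mean of at least 1 (3.18%) differed by at least 10-fold between libraries of 1 group, with 0 counted. No member other than Trib3 and Chac1 was at 0 in any library.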
